A study of Homo sapiens with 6 samples.

Results

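The genes described here are 9 neighbours on the long arm of human chromosome 3, from PHLDB2 to BOC, with CD200 and CCDC80 near the middle. They were taken by gene name from a table of 58735 named genes and ordered by their start position. The set was chosen because CD200, ATG3, SLC35A5 and CCDC80 were higher together in libraries labelled as FXYD3 knockout, so the knockout-labelled against wild-type values of all 9 genes are given as a description, with no test. The cells were LS174T, a colorectal adenocarcinoma line that the labels call goblet-like, after the mucus-secreting cells of the gut. There were 3 libraries of poly(A) RNA with the genotype WT and 3 with the genotype FXYD3 knockout; no treatment, age or time point is labelled. FXYD3 encodes a small membrane protein that regulates the sodium pump. The labels do not say how the edit was made, whether the knockout cells were 1 clone, or whether the 3 libraries of a group were separate cultures, so the spread given below is that between these libraries and may be technical.

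The neighbours have little in common as proteins. CD200 is a membrane glycoprotein of the immunoglobulin superfamily whose receptor on myeloid cells restrains their activation, and the genes of its receptor family lie in the same stretch of chromosome. ATG3 is the E2-like enzyme of autophagy that joins LC3 and GABARAP proteins to a membrane lipid. SLC35A5 belongs to a family of nucleotide sugar transporters, CCDC80 is a secreted protein of the extracellular matrix, and BOC is a cell-surface co-receptor for Hedgehog ligands. Of the rest, PHLDB2 anchors microtubule ends at the cell cortex, ABHD10 is a mitochondrial hydrolase, GTPBP8 is a putative GTP-binding protein, and C3orf52 encodes a transmembrane protein.

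On GRCh38 the stretch from the start of PHLDB2 to the end of BOC runs from 111732497 to 113287459 on chromosome 3, 1.55 Mb with 35 named genes. The order is PHLDB2, ABHD10, C3orf52, CD200, ATG3, SLC35A5, CCDC80, GTPBP8 and BOC; ATG3 and CCDC80 lie on the minus strand and the others on the plus strand. ATG3 and SLC35A5 point away from each other and their spans overlap by 338 bases. Their RefSeq starts at 112561962 and 112562045 are 82 bases apart, and SLC35A5 has another RefSeq start at 112561320, inside the span of ATG3. CCDC80 follows 11.2 kb beyond the end of SLC35A5, whereas 170 kb separate CD200 from ATG3 and 341 kb separate CCDC80 from GTPBP8. The overlapping exons of ATG3 and SLC35A5 cover 151 bases, 2.47% of the exon bases of ATG3 and 3.11% of those of SLC35A5. Because the strand setting of the counting is not known, reads from that overlap cannot be told apart.

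Sequence before the starts was read from RefSeq promoter windows on GRCh38.p14, which hold 8 of the 9 genes. The stretches printed are the part of the 250 bases before a RefSeq start that lies outside every annotated exon of GENCODE release 29. For a gene with several starts, the start with the longest such stretch was used. They are shown because the density of CpG, the dinucleotide at which human DNA is methylated, differs widely between these neighbours; capitals mark each CG.
CCDC80, chr3:112641301-112641393, minus strand: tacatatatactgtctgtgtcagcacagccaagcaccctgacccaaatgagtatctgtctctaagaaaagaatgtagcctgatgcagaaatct
BTLA, chr3:112499562-112499722, minus strand: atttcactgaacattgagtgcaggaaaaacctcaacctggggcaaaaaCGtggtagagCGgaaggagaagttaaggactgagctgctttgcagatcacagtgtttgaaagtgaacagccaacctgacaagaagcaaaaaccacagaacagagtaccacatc
SLC35A5, chr3:112561070-112561319, plus strand: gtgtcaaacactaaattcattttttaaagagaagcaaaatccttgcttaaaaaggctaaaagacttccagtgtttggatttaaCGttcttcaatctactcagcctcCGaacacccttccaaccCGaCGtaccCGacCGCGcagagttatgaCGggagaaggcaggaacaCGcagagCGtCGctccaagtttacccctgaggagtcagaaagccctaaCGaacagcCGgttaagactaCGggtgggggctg
C3orf52, chr3:112086139-112086334, plus strand: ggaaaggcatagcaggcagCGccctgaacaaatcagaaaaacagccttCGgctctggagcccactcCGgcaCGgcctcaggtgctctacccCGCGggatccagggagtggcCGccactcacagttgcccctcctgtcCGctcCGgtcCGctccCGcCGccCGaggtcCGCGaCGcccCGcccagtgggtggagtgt
BOC, chr3:113211307-113211481, plus strand: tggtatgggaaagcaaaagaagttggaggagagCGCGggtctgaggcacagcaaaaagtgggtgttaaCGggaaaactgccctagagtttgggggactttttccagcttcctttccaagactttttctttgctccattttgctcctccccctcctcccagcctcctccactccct
The CCDC80 stretch has 0 CG in 93 bases and that of BTLA, a neighbour between CD200 and ATG3, has 2 in 161. The C3orf52 stretch has 17 in 196 bases, the SLC35A5 stretch 14 in 250 and the BOC stretch 3 in 175. For SLC35A5 and BOC the full window of the start not shown holds more CpG, 24 and 28.

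In the full windows of 250 bases, CD200 had 9 CpG and CCDC80 had 1, against a median of 11 over all 35116 windows of the table. Both windows lie inside the deposited spans of these genes, which begin further upstream, at 112332347 for CD200 and 112649530 for CCDC80. Windows with 9 CpG or fewer made up 47.8% of the table and windows with 1 or fewer 14.7%. ATG3 had 19, GTPBP8 18, C3orf52 26 and the start of SLC35A5 nearest ATG3 24. PHLDB2 has several starts, with 1 to 27 CpG, and BOC had 6 and 28 at its pair of starts. Motifs were searched on both strands, and none contains another. The ETS-type motif CCGGAAG was present 2 times in the ATG3 window and 3 times in the SLC35A5 window nearest it, and these windows share 82 bases; 8.52% of all windows hold it. The TATA motif TATAAA was present in the CD200 window and in 1 of the PHLDB2 windows, against 10.7% of all windows. These are matches of letters only.

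The libraries held 15417232 to 19453217 counts in named genes. FXYD3 itself was low in all of them, 3.88 ± 1.07 CPM (counts scaled to library size with TMM factors; SD, n = 3) in wild type and 5.62 ± 0.934 CPM in the knockout-labelled libraries, with a log2 fold change of 0.54 (SE 0.20, edgeR adjusted p = 0.0522). The FXYD3 transcript therefore gives no check of the genotype labels, and directions are stated by label only. Of 14 goblet and epithelial markers 12 were tested, and 7 were called lower and 0 higher by edgeR, against 12.4% and 12.0% of all tested genes. Their summed level was 1931 to 2183 CPM in wild type and 1704 to 1821 CPM in the knockout-labelled libraries. The secreted goblet products SPINK4 (10.2 to 2.18 CPM, log2 fold change -2.23), MUC2 (31.5 to 15.8 CPM, -0.99), TFF3 (50.3 to 32.8 CPM, -0.62) and FCGBP (31.0 to 23.9 CPM, -0.37) fell, as did AGR2 (680 to 461 CPM, -0.56), SPDEF (2.81 to 1.57 CPM, -0.84) and CDH1 (38.1 to 29.6 CPM, -0.36). EPCAM, CDX2 and VIL1 were abundant in both groups and not called. VIL1 was higher in every knockout-labelled library than in any wild-type one (log2 fold change 0.14, edgeR adjusted p = 0.0542). EPCAM was lower in every knockout-labelled library than in any wild-type one (log2 fold change -0.11, edgeR adjusted p = 0.178). ATOH1 (-0.20, adjusted p = 0.430) and KRT20 (-0.19, adjusted p = 0.694) were not called either. CLCA1 and ZG16 were too low to test. CLCA1 went the other way, with 0, 1 and 1 counts in wild type and 6, 2 and 5 in the knockout-labelled libraries. ZG16 had group sums of 6 and 0 counts. The part of the marker falls in the values below was not tested.

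CD200 had 2.83, 1.91 and 1.93 CPM in wild-type libraries 1 to 3 and 37.7, 34.8 and 38.5 CPM in knockout-labelled libraries 1 to 3. The lowest knockout-labelled library was above the highest wild-type library by a wide margin, and wild-type library 1 was the highest of its group. The means were 2.22 ± 0.529 and 37.0 ± 1.95 CPM (SD, n = 3 each), a 16.7-fold ratio, and the fitted log2 fold change was 4.05 (SE 0.13). In counts, the group sums were 114 and 1912. CD200 shares 355 exon bases, 11.9% of its own, with AC112487.1 on the same strand, which had 5 counts over all libraries. In bulk RNA, a higher level per cell and more cells with the transcript cannot be told apart.

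CCDC80, 264.4 kb further along, had 4.22, 3.20 and 3.85 CPM in the wild-type libraries and 64.5, 65.0 and 72.3 CPM in the knockout-labelled ones. The groups were far apart, and knockout-labelled library 3 was the highest. The means were 3.76 ± 0.516 and 67.3 ± 4.37 CPM (SD, n = 3 each), a 17.9-fold ratio, with a log2 fold change of 4.16 (SE 0.11). Among the 15351 genes tested, 30 had a log2 fold change of at least 4 (0.195%), and CCDC80 and CD200 ranked 26 and 29 from the highest.

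Between these genes lies the divergent pair ATG3 and SLC35A5, which was already well expressed in wild type. ATG3 had 68.7, 64.5 and 66.8 CPM in wild type and 129, 131 and 122 CPM in the knockout-labelled libraries. The libraries of each group lay close together and the groups did not overlap. Its means of 66.7 ± 2.11 and 128 ± 4.87 CPM (SD, n = 3 each) gave a 1.91-fold ratio and a log2 fold change of 0.94 (SE 0.06). A processed pseudogene of the enzyme, ATG3P1 on chromosome 20, had 0 counts in all 6 libraries.

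SLC35A5 had 25.0, 26.5 and 27.7 CPM in wild type and 44.3, 39.5 and 43.3 CPM in the knockout-labelled libraries. Here too the groups did not overlap, and knockout-labelled library 2 was the lowest of its group. The means were 26.4 ± 1.36 and 42.4 ± 2.55 CPM (SD, n = 3 each), a 1.61-fold ratio, with a log2 fold change of 0.68 (SE 0.08). The pair thus differed far less than CD200 and CCDC80 on either side of it.

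**Figure D1:**
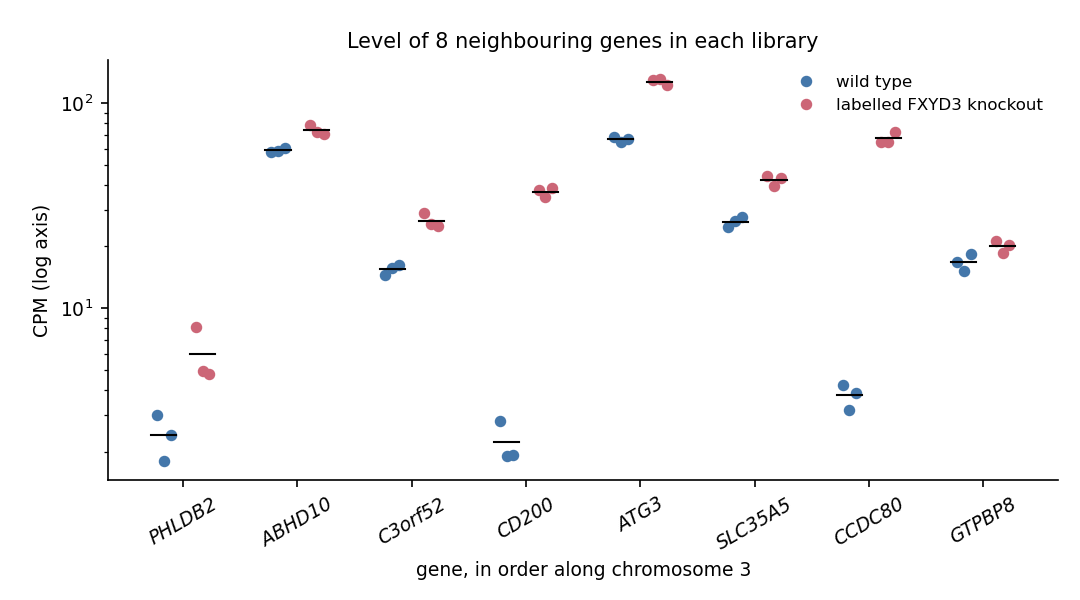
Level in CPM (log axis) of the 8 genes with counts in each of the 6 libraries, in order along the chromosome; points are libraries and bars are means of 3. CD200 and CCDC80 stand at 2.22 and 3.76 CPM in wild type and at 37.0 and 67.3 CPM in the knockout-labelled libraries, while the other genes differed by 1.20-fold to 2.47-fold.

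Towards the start of the stretch, C3orf52 had 14.5, 15.7 and 16.3 CPM in wild type and 29.1, 25.6 and 25.3 CPM in the knockout-labelled libraries. Every knockout-labelled library was above every wild-type library, and knockout-labelled library 1 was the highest. The log2 fold change was 0.78 (SE 0.10). Its span overlaps that of GCSAM on the opposite strand by 10164 bases, of which 75 are exonic in both genes.

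PHLDB2, the most distant of the genes on that side, was low, with 52, 32 and 39 counts in wild type and 126, 97 and 80 in the knockout-labelled libraries. That corresponds to 2.41 ± 0.605 and 5.96 ± 1.90 CPM (SD, n = 3 each) and a log2 fold change of 1.30 (SE 0.24). The groups did not overlap, but knockout-labelled library 1, at 8.14 CPM, stood above the other 2 of its group, at 4.96 and 4.77 CPM. PHLDB2 shares 322 exon bases, 2.62% of its own, with PLCXD2 on the same strand.

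ABHD10, which starts 2.49 kb beyond the end of PHLDB2, had 57.8, 58.6 and 60.4 CPM in wild type and 78.1, 72.1 and 71.1 CPM in the knockout-labelled libraries. The groups were separate, and the size of the difference was small, 1.25-fold with a log2 fold change of 0.32 (SE 0.07). At the far end, GTPBP8 had 16.8, 15.1 and 18.3 CPM in wild type and 21.3, 18.5 and 20.4 CPM in the knockout-labelled libraries. The highest wild-type and the lowest knockout-labelled value nearly touched, and the log2 fold change was 0.26 (SE 0.10). The span of GTPBP8 overlaps NEPRO on the opposite strand by 12621 bases with 0 exon bases in common. GTPBP8 shares 236 exon bases, 6.17% of its own, with AC074044.1 on the opposite strand, which had 14 counts over all libraries.

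BOC had 0 counts in all 6 libraries. A count of 0 allows up to 3 counts, 0.153 to 0.194 CPM depending on the library, so the Hedgehog co-receptor was not detectable at this depth in either group. Such limits, and the intervals below, cover counting error only, because PCR copies of a molecule were not marked.

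In sum over the neighbourhood, the 9 genes had 3184 to 3335 counts in a wild-type library and 6383 to 7657 in a knockout-labelled one. BOC did not pass the filter on low counts and the other 8 did. Their log2 fold changes ran from 0.26 to 4.16 with a median of 0.86, against a median of 0.00 over all tested genes. By edgeR 7 of the 8 were called higher, all except GTPBP8, and 12.0% of all tested genes were called higher; nothing is read from this count, since the genes were chosen on the same contrast. The knockout-labelled libraries were all above the wild-type ones for 8 of the 8, and for 18.6% of all tested genes. All 8 had a log2 fold change above 0, as did 50.4% of all tested genes. PHLDB2, CD200 and CCDC80 had one of at least 1, as did 3.57% of all tested genes, and 3.18% were also called higher.

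The order of levels was compared per kilobase of gene length, as the count of a gene grows with its length. In wild type the order of CPM per kb was ABHD10 (19.5), ATG3 (10.9), SLC35A5 (5.44), GTPBP8 (4.37), C3orf52 (2.57), CD200 (0.743), CCDC80 (0.288), PHLDB2 (0.196) and BOC (0). No neighbours in that order overlapped over the 3 libraries, although CCDC80 and PHLDB2 nearly did, with a lowest value of 0.245 and a highest of 0.244. In the knockout-labelled libraries CD200, at 12.4 ± 0.652 CPM per kb (SD, n = 3), stood at rank 3, above SLC35A5 at 8.73 ± 0.526. CCDC80 reached 5.15 ± 0.334 CPM per kb and overlapped GTPBP8, at 5.24 ± 0.373, so the order of those 2 is not resolved. ABHD10 and ATG3 remained the first 2 and PHLDB2 the last with counts.

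**Figure D2:**
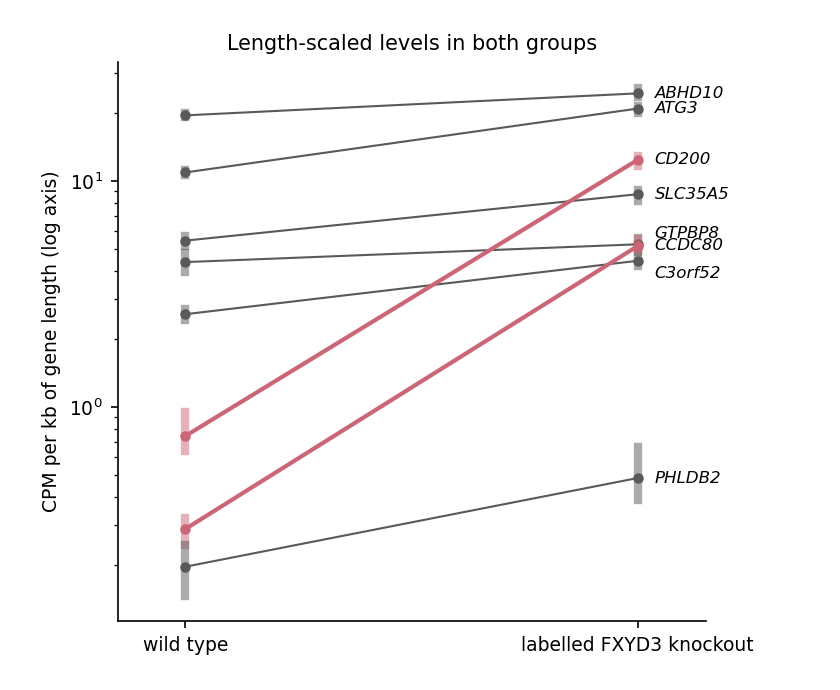
Level per kilobase of gene length (log axis) in both groups; points are means of 3 libraries, thick bars run from the lowest to the highest library, and CD200 and CCDC80 are coloured. These genes have ranks 6 and 7 in wild type, at 0.743 and 0.288 CPM per kb, and CD200 ranks 3 in the knockout-labelled libraries, at 12.4 CPM per kb.

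The other named genes whose lower coordinate lies within the stretch were not used to choose the set, although its limits were drawn with these results known. There were 26, of which 10 had at least 10 counts over the 6 libraries and 5 were tested. By edgeR 4 were called higher and 0 lower, against 12.0% and 12.4% of all tested genes. The 4 include CFAP44, of which only 513 bases lie within the stretch. BTLA, an inhibitory receptor of lymphocytes that lies between CD200 and ATG3, had 0, 0 and 2 counts in wild type and 39, 17 and 12 in the knockout-labelled libraries. The groups did not overlap, and knockout-labelled library 1 held more than both others together. The ratio of the group sums, 68 over 2 counts, was 33.6 after scaling to library size (95% exact interval 8.95 to 283), and the fitted log2 fold change was 4.86 (SE 0.84, adjusted p = 0.000115). Even so, BTLA stayed low, at 2.52, 0.870 and 0.715 CPM in the knockout-labelled libraries.

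GCSAM, a signalling protein of germinal centre B cells, had 29, 35 and 35 counts in wild type and 56, 67 and 84 in the knockout-labelled libraries, and rose with a log2 fold change of 1.05 (SE 0.24, edgeR adjusted p = 0.00198). It overlaps C3orf52 on the opposite strand, and over the 6 libraries it had 306 counts against 2168 for C3orf52. TBILA, an RNA annotated as antisense that starts beside GCSAM, rose with a log2 fold change of 1.18 (SE 0.32, adjusted p = 0.0073) from 12, 21 and 20 counts to 42, 44 and 36. Without wild-type library 1 it missed the threshold (0.96, edgeR adjusted p = 0.0554). CFAP44, a cilium protein gene whose span reaches into the last exon of BOC, had a log2 fold change of 0.34 (SE 0.11, adjusted p = 0.0209), and it missed the threshold in 5 of the 6 fits that each left out a library, the exception being wild-type library 2 (adjusted p 0.0574 to 0.123 in the 5). NEPRO, beside GTPBP8, had 48.7 ± 1.10 and 50.3 ± 3.72 CPM and a log2 fold change of 0.05 (adjusted p = 0.692).

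The remaining 5 genes of the stretch with at least 10 counts were too low for the test. SLC9C1, a sodium/proton exchanger, had 1, 6 and 2 counts in wild type and 8, 11 and 15 in the knockout-labelled libraries, without overlap. The long noncoding RNA AC092894.1, between CD200 and BTLA, had 1, 1 and 0 counts and then 7, 7 and 7, a scaled ratio of 10.4 (95% exact interval 2.54 to 91.3). The pseudogene AC128688.1, by contrast, had group sums of 16 and 18 counts. CD200R1, the CD200 receptor gene, had group sums of 3 and 7 counts, a scaled ratio of 2.31 with an exact interval of 0.526 to 13.8, and AC074044.1 had 5 and 9. CD200R1L had 0 counts in all libraries.

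**Figure D3:**
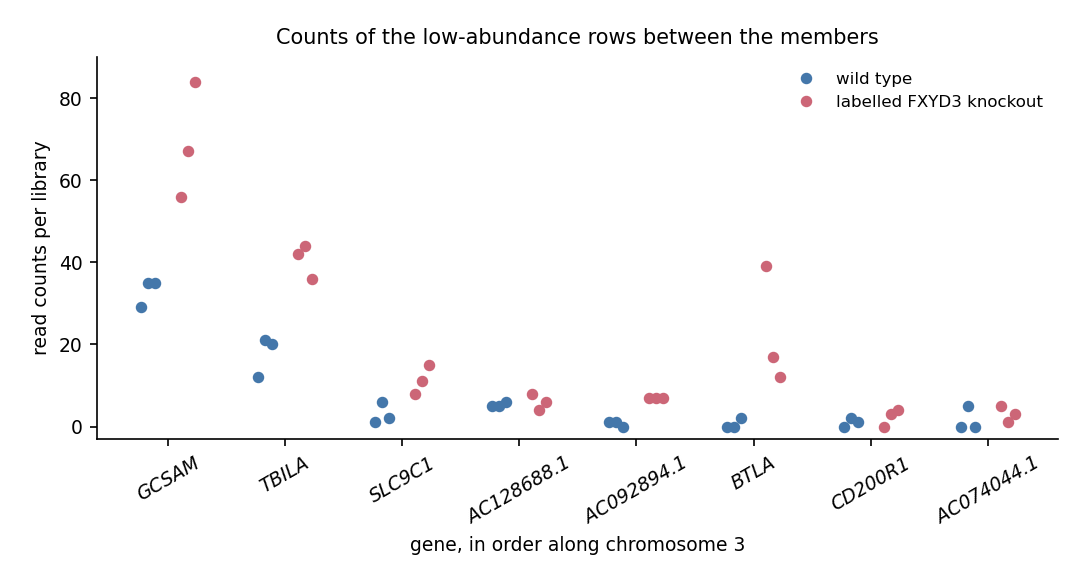
Raw read counts per library of 8 low-abundance neighbours within the stretch, in order along the chromosome; each point is 1 library. GCSAM, TBILA, SLC9C1, AC092894.1 and BTLA show no overlap between groups, whereas AC128688.1, CD200R1 and AC074044.1 do.

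Along the chromosome, PHLDB2, ABHD10, C3orf52, GCSAM, TBILA, CD200, BTLA, ATG3, SLC35A5 and CCDC80 formed an unbroken run of 10 adjacent tested genes called higher, from 111732497 to 112649530 on chromosome 3. The median log2 fold change of the run was 1.12. Elsewhere in the genome the longest runs called higher had 6 genes, of which there were 2, and the longest run called lower had 6. This is a description, since the run holds the genes that were chosen on this contrast. Its length depended on which genes were tested and on which of them passed the threshold. It was 3 with no filter on low counts, shorter than the longest other run of 4. It was 5, from CD200 to CCDC80, without wild-type library 1, when the longest other run also had 5. With upper-quartile or total-count scaling it was 11 and with a CPM filter 9, and the longest other run was then 8.

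The nearest tested gene with its lower coordinate outside the stretch was not called on either side. CFAP44, which lies mostly beyond the end of the stretch, was called higher, as given above. The nearest tested gene before PHLDB2, PLCXD2, had 8.56 ± 0.517 and 10.6 ± 0.964 CPM (SD, n = 3 each) and a log2 fold change of 0.31 (edgeR adjusted p = 0.0834). Its knockout-labelled libraries were all above the wild-type ones, as for 18.6% of all tested genes. Its span overlaps that of PHLDB2 by 113951 bases on the same strand. By lower coordinate the nearest tested gene after BOC, AC112128.1, had a log2 fold change of -0.40 (edgeR adjusted p = 0.432). It shares its strand and span with CFAP44 and SPICE1. Of the 10 nearest tested genes on the far side 0 were called by edgeR, with 2 at an unadjusted p below 0.05 (SIDT1, 0.0437, and QTRT2, 0.0352), and their median log2 fold change was 0.03. On the near side 3 of 10 were called higher and 0 lower, with starts at -4289.3 to -3952.0 kb relative to that of CD200. HHLA2, a ligand of the B7 family of immune regulators, had 3.13 ± 0.360 CPM in wild type and 13.5 ± 0.730 CPM in the other group, a rise of 2.10 on the log2 scale (SE 0.15, edgeR adjusted p = 1.41e-11). Its neighbour MYH15, a myosin heavy chain, rose by 1.49 on the log2 scale (SE 0.36, adjusted p = 0.00264), and CD47, a surface protein that restrains phagocytosis, by 0.28 (SE 0.06, adjusted p = 0.00195). On chromosome 3 outside the stretch, 100 of 838 tested genes were called higher and 91 lower, with a median log2 fold change of 0.01.

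**Figure D4:**
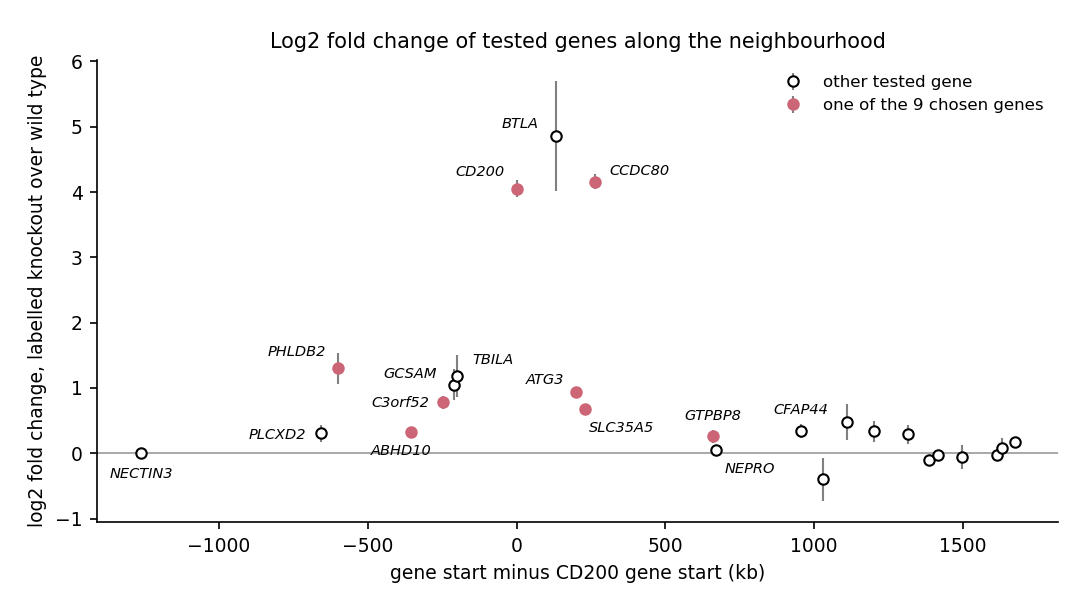
Log2 fold change, knockout-labelled over wild type, of the tested genes from NECTIN3 to QTRT2 along chromosome 3. The horizontal axis is the distance of each gene's start from that of CD200 in kb. Bars are standard errors, filled points are the chosen genes and open points the other genes. CD47, HHLA2 and MYH15 start before this range and are not shown. BTLA, CD200 and CCDC80 stand at 4.05 to 4.86, and their neighbours from PHLDB2 to SLC35A5 at 0.32 to 1.30. Before the stretch PLCXD2 stands at 0.31 and NECTIN3 at 0.01. The genes plotted after CCDC80 stand at -0.40 to 0.48, GTPBP8 among them at 0.26.

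Partners of these proteins were examined from lists of their pathways. Among the enzymes and substrates of the autophagy conjugation systems, in which ATG3 acts, 16 of 17 genes were tested, 1 was called lower and 0 higher, with a median log2 fold change of 0.00. The gene called, MAP1LC3A, an LC3 protein, fell from 15.5 ± 2.51 to 9.66 ± 0.523 CPM (log2 fold change -0.68, adjusted p = 0.00017). ATG7, the enzyme that hands its cargo to ATG3, had 25.6 ± 2.15 and 23.9 ± 1.34 CPM (adjusted p = 0.457). Of 13 other nucleotide sugar transporter genes related to SLC35A5, 12 were tested and 2 were called higher, SLC35D1 by 0.42 (SE 0.08) and SLC35A4 by 0.18 (SE 0.05), with a list median of -0.04. SLC35A4 overlaps APBB3 on the opposite strand, and its call was lost in 4 of the alternatives. Across all tested genes 12.0% were called higher and 12.4% lower.

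In the Hedgehog list, to which BOC belongs by function, 7 of 13 genes were tested, with 3 called higher, 1 lower and a median of 0.16. For this list and those below, the shares over all tested genes were 12.0% called higher and 12.4% lower. The target gene GLI1 rose by 2.26 on the log2 scale (SE 0.44), from 0.315 ± 0.132 to 1.54 ± 0.238 CPM (SD, n = 3 each). PTCH1, the most abundant gene of the list, had 69.2 ± 2.80 and 72.1 ± 4.01 CPM and was not called (edgeR adjusted p = 0.595). CDON and IHH were not called either. The inhibitor SUFU rose by 0.30 and the ligand SHH fell from 34.1 ± 0.538 to 28.0 ± 1.07 CPM. SUFU missed the threshold without wild-type library 1 (edgeR adjusted p = 0.0689), wild-type library 3 (0.103) or knockout-labelled library 2 (0.144), and SHH without wild-type library 1 (0.0519). The signal transducer SMO had 0 counts in all libraries. Among relatives and cortical partners of PHLDB2, 9 of 10 were tested, PPFIBP1 was called higher (0.31) and PHLDB1 lower (-0.92), and the median was 0.09. PPFIBP1 missed the threshold without knockout-labelled library 3 (0.24, edgeR adjusted p = 0.0585). Of the CD200 receptors and their signalling partners 3 of 6 were tested. The phosphatase gene INPP5D fell by 0.82 on the log2 scale (adjusted p = 3.47e-09), and the other 2 tested were not called. SRPX2, which shares a domain with CCDC80, was at 0.477 and 0.668 CPM and was not called (adjusted p = 0.631).

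CD200, BTLA and CCDC80 are also known from leukocytes, endothelium and fibroblasts, so markers of those cells were read in the same libraries. Of 9 leukocyte markers 5 had 0 counts in every library, namely PTPRC, CD3E, CD3D, CD79A and MS4A1, and the summed level was 34.1 to 38.6 CPM in wild type and 32.6 to 33.8 CPM in the knockout-labelled libraries, most of it LYZ; CD14 fell from 3.71 to 0.388 CPM. Of 6 endothelial markers PECAM1 and KDR were at 0, and the summed level of 3.82 to 4.05 and 2.65 to 4.09 CPM was nearly all ERG. Of 9 fibroblast markers COL1A2 and PDGFRA were at 0 and the summed level went from 1.33 to 2.11 CPM in wild type to 6.49 to 8.29 CPM, of which COL3A1 was the main part (0.313 ± 0.0901 to 5.63 ± 0.453 CPM). PDGFRB had 0.906 ± 0.363 CPM in wild type and 1.23 ± 0.241 CPM in the knockout-labelled libraries and was not called (edgeR adjusted p = 0.469). COL1A1, DCN, LUM, THY1 and FAP had group means below 0.3 CPM, and the highest single library among them was 0.512 CPM (LUM, knockout-labelled library 2). Whether the COL3A1 rise has a part in the values of CCDC80 was not tested.

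Outside chromosome 3, the genes whose pattern over the 6 libraries lay closest to the mean pattern of CD200, ATG3, SLC35A5 and CCDC80 were RNF157, TLE1, HCP5, CDH16 and LINC00668. The measure was the Euclidean distance between log2 CPM values centred on each gene's mean, and 10480 genes with at least 5 CPM on average were compared. Their distances ran from 0.157 to 0.374 and their log2 fold changes from 2.37 to 2.65. The mean pattern lies between the small changes of ATG3 and SLC35A5 and the large ones of CD200 and CCDC80, so those 4 genes were themselves 1.75 to 2.07 away from it.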

How the data were processed

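RNA of 6 libraries was measured, 3 per group, and groups and replicate numbers were taken from the library names in the labels. The submitters' processing notes name HISAT2 2.0.5, featureCounts 1.5.0-p3 and the mouse build mm10, but all 58735 identifiers with a gene name are human and in GENCODE release 29 (GRCh38), and 58724 have its start and end. The annotation release, strand setting and handling of multi-mapped reads were not given in the sources used here. Whole-number counts were deposited by the authors per gene, with no normalization, and the gene length, which equals the union of GENCODE 29 exons for all 9 genes. The 232 rows without a gene name, 0.130 to 0.250% of the counts of a library, were left out.

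Genes were tested two-sided by quasi-likelihood in edgeR 4.0.16 under R 4.3.3, with TMM scaling, filterByExpr at a minimum count of 10 and robust spread, over 15351 genes, with Benjamini-Hochberg adjustment and calls at an adjusted p below 0.05. A positive log2 fold change means higher in the knockout-labelled group. The fit was tested on simulated data. Alternatives were other scalings and filters, DESeq2 1.42.0, limma voom (limma 3.58.1), no robust spread, a block for replicate number and fits without each library.

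The genes and lists were chosen with earlier results of these data known. Genes named besides the 9 were those of the stretch with at least 10 counts, the nearest and the called among 10 tested genes on each side, up to 4 called genes of each partner list by smallest p or its most abundant gene, cell markers, and the 5 nearest by pattern (pseudocount 0.5). ATG7, SMO, PTCH1, CDON, IHH, SIDT1, QTRT2, NECTIN3, VGLL3 and AC112487.1 were added after their values were seen. One called gene of a partner list is counted but not reported here by name. Gene positions are those of the deposited table; promoter windows of 250 bases come from RefSeq.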

Additional observations from a re-analysis of the deposited data

How the results depend on the processing

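The log2 fold changes of the 8 tested genes of the set kept their direction in all 15 alternatives, from 0.19 to 0.33 for GTPBP8 up to 4.05 to 4.25 for CCDC80; CD200 ranged from 3.94 to 4.26, the latter without wild-type library 1, and PHLDB2 from 1.01 to 1.49. Their median ranged from 0.82 to 0.89 with a library left out. The run of adjacent genes called higher around CD200 was 3 genes long with no filter on low counts, where rows with few counts lie between the others, and 5 to 11 with a library left out. All genes called higher numbered 1329 to 2189 and lower 1376 to 2401 with a library left out. Other genes of the stretch and its flanks called higher numbered 5 to 10 and lower 0 to 0, and partner genes called higher 4 to 7 and lower 3 to 7, the 7 without wild-type library 2. With a library left out, NEPRO ranged from -0.01 (without knockout-labelled library 2) to 0.10 and SRPX2 from -0.05 (without wild-type library 3) to 0.79, both reversing at the low end; the cause was not tested. FXYD3 passed the threshold without wild-type library 2 (0.79, adjusted p = 0.00313), with upper-quartile scaling (0.0442), no filter (0.0479) and the replicate block (0.54, adjusted p = 0.0472); SLC35A4 lost its call with the block (0.18, adjusted p = 0.0675). With the block 1478 genes were called higher and 1475 lower. Deviations of libraries with the same number correlated at 0.0234, -0.0751 and -0.0959, and 2 of 6 libraries correlated best with their own number. With so few libraries these values show no pairing by number but cannot exclude it. The low counts of BTLA, SLC9C1 and AC092894.1 limit their precision.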

Other observations

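Among the 30 tested genes with a log2 fold change of at least 4, 4 lie on chromosome 3, which holds 851 of the 15351 genes tested. Of these 4, 3 are CD200, BTLA and CCDC80. Nothing is read from this count, since CD200 and CCDC80 were chosen on the same contrast. The other is VGLL3, a transcription cofactor, with group sums of 5 and 200 counts (log2 fold change 5.20).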
